A study of Mus musculus with 4 samples.

Results

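Transcripts of 6 adrenergic receptor genes, Adra1a, Adra1b, Adra1d, Adra2a, Adra2c and Adrb1, were examined in septal brain tissue of restraint-stressed mice. They were taken by symbol and are 6 of 15409 listed gene rows. Adra2b and Adrb3, of the same family, served for comparison. All mice had undergone restraint stress in DecapiCones, 30 min per session over 3 days, with tissue taken 1.5 h after the final session. One group was TCRb-/-, without the T cell receptor beta chain, and the other was wild type (WT). Each had 2 libraries, replicate 1 from experiment 1 and replicate 2 from experiment 2, and each library came from the pooled septal tissue of 4 to 5 mice. Age, sex and strain were not given in the labels, and every animal had been stressed, so the data hold no unstressed baseline. Replicates are pools of animals.

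Adrenergic receptors are G protein-coupled receptors for noradrenaline and adrenaline. In the forebrain the ligand comes mainly from axons of the locus coeruleus, a brainstem nucleus that fires during stress and projects to the septum. Receptors of the alpha-1 class couple to Gq and raise intracellular calcium. Those of the alpha-2 class couple to Gi and Go, lower cAMP and, on noradrenergic terminals, restrain transmitter release. Those of the beta class couple to Gs and raise cAMP. Messenger RNA mostly marks the cells that make a receptor, so receptor protein on incoming axons is not measured by septal RNA.

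The libraries held between 19988137 and 26210790 reads. Trbc2, a constant segment of the deleted chain, had 0 reads in both TCRb-/- libraries, a count that allows up to 0.122 and 0.150 CPM (reads scaled to a total of 1000000 per library), and 169 and 86 reads in WT. Of 13 septal markers, 12 were listed, with summed levels from 468 to 535 CPM, and Drd3 was not analysed here. Between experiments 4 of the 12 were called, beside 23.7% of all genes tested. Nts, Zic1 and Zic4 were higher and Slc5a7 lower in experiment 2. The experiments differed far more than the genotypes. The first principal component held 76.7% of the variance and separated the experiments. Striatal, thalamic and choroid plexus markers, which belong to tissue next to the septum, differed strongly between libraries and are given after the receptors. In pooled tissue, fewer cells of a type and less RNA per cell cannot be told apart.

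Promoter sequence was to be had for 4 of the 6 genes from RefSeq (GRCm38.p6), as windows from 250 bases before to 50 after an annotated start. They are shown for each of the 6 genes that had a window, whatever its levels. A link between these sequences and the levels was not tested. Adra2a is at chr19:54045009-54045308 on the plus strand, Adrb1 at chr19:56721867-56722166 on the plus strand, and Adra2c at chr5:35278316-35278615 on the plus strand. Adra1b has a downstream start in chr11:43836440-43836739 and an upstream start in chr11:43901188-43901487, both on the minus strand. Capitals mark, on either strand, the GC box GGGCGG, the CCAAT box CCAAT, the TATA box TATAAA and TGACG, the core of the cAMP response element TGACGTCA.
Adra2a: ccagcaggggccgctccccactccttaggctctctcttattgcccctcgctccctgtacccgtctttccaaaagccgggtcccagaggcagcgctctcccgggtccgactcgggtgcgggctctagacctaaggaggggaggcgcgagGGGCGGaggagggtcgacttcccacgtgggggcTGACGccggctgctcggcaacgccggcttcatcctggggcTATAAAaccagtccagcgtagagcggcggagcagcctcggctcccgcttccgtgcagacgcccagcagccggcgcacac
Adrb1: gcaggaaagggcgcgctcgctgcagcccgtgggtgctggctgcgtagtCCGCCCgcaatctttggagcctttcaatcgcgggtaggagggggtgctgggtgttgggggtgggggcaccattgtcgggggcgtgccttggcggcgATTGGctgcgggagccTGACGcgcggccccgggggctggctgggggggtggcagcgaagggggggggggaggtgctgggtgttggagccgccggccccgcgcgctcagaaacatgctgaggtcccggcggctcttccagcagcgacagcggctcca
Adra2c: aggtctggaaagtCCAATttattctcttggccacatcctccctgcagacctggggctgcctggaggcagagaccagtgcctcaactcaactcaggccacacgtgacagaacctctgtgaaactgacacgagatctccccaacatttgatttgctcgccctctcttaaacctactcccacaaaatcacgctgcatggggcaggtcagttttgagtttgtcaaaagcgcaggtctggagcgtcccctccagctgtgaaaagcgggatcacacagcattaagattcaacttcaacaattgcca
Adra1b, downstream start: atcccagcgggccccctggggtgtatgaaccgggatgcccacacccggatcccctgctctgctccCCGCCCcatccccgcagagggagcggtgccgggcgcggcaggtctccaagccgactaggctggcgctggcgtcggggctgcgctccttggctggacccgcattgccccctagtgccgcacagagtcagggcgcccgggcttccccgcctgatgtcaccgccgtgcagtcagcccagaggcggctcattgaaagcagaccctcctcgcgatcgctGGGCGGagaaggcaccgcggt
Adra1b, upstream start: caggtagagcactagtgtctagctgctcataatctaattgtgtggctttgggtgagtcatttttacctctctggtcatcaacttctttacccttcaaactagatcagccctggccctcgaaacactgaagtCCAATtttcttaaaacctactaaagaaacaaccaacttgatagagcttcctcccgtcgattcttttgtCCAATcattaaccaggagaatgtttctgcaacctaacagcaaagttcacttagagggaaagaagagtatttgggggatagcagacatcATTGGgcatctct

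The windows of Adra2a, Adrb1 and the downstream start of Adra1b were rich in G and C, at 68.7%, 72.3% and 71.3%, against a median of 52.7% over 32851 promoter windows of the same length. Those of Adra2c, at 51.3%, and of the upstream start of Adra1b, at 42.3%, were not. The Adra2a window held a TATA box starting 29 bases before the annotated start, a motif found in 13.6% of all windows. The Adra2a and Adrb1 windows each held 1 TGACG match, found in 20.8% of windows, and none of the 5 windows held the full element TGACGTCA, found in 1.79%. A GC box was present in the windows of Adra2a, Adrb1 and the downstream start of Adra1b, and in 35.7% of all windows. A CCAAT box was present in those of Adrb1, Adra2c and the upstream start of Adra1b, and in 37.4% of all windows. In GENCODE M21 the genes Adra2a and Adra2c start further upstream than in RefSeq, so the position of these windows depends on the annotation. The gene totals did not separate the 2 starts of Adra1b. A match is a match of letters in this window and no measurement of binding.

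Adra2c was the most abundant of the 8 receptor transcripts per length in all 4 libraries, although in TCRb-/- replicate 2 its counting interval (6.85 to 8.15 CPM per kilobase) overlapped those of Adra1b (6.10 to 7.35) and, narrowly, Adra2a. Adra1d was the least abundant of the 6 genes in the mean. Per kilobase of annotated exon, the mean level over the 4 libraries was 14.3 ± 5.28 CPM per kilobase for Adra2c (SD, n = 4), 6.24 ± 0.487 for Adra2a, 4.31 ± 1.70 for Adra1b, 2.70 ± 0.518 for Adrb1, 0.405 ± 0.126 for Adra1a and 0.279 ± 0.0860 for Adra1d. These SDs include the difference between experiments. Over the libraries, the range of Adra2c, from 7.48 to 18.8 CPM per kilobase, lay above that of Adra2a, from 5.65 to 6.77, by a gap within the counting error just given. Adra1b, from 3.07 to 6.70, overlapped both Adra2a and Adrb1, the latter from 2.25 to 3.25. Adrb1 lay above Adra1a, from 0.272 to 0.533, without overlap. Adra1a and Adra1d, the latter from 0.181 to 0.369, overlapped. On the longest annotated transcript in place of all exons, Adra1a came to 0.826 ± 0.256 CPM per kilobase and no longer overlapped Adra1d, with the order unchanged. Of the receptors used for comparison, Adra2b had 0.766 ± 0.139 CPM per kilobase and Adrb3 0.442 ± 0.0430, both between Adrb1 and Adra1d.

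**Figure D1:**
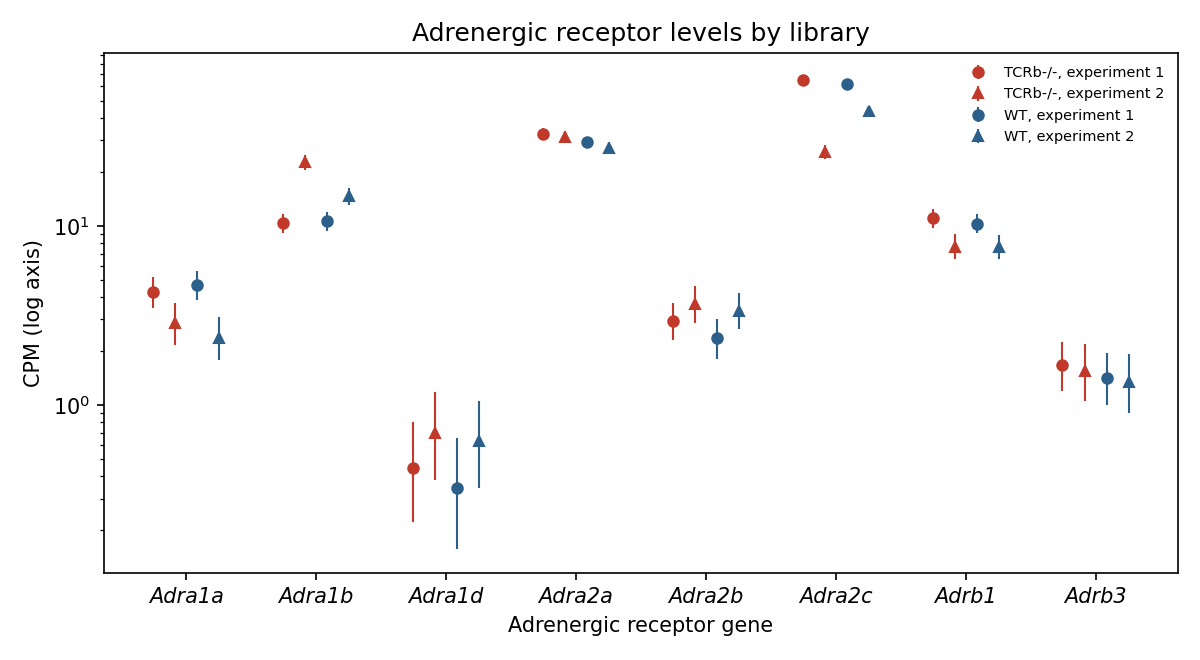
Level of 8 adrenergic receptor genes in each library, in CPM on a log axis; colour gives the genotype, circles are experiment 1, triangles experiment 2, and bars are exact 95% counting intervals. Adra1b, Adra2b and Adra1d were higher and Adra2c, Adrb1 and Adra1a were lower in both experiment 2 libraries. Counting intervals of Adra2b and Adra1d overlapped between experiments. For 67.3% of all genes tested the 2 experiments did not overlap. Adra2a lay between 27.3 and 32.7 CPM throughout.

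The alpha-2 class took the largest share of the summed receptor level per kilobase over these 8 receptors. Its share was 77.8% and 77.2% in the TCRb-/- and WT libraries of experiment 1, and 59.5% and 71.8% in those of experiment 2. The alpha-1 class took 11.2% and 12.0% in experiment 1 and 29.6% and 18.4% in experiment 2. Adrb1 and Adrb3 together took between 9.87% and 11.0%. The makeup of the sum was therefore alike in both genotypes of experiment 1 and furthest from the rest in the TCRb-/- library of experiment 2. In that library Adra2c took 29.9%, Adra1b 26.8% and Adra2a 25.9%, whereas Adra2c took 55.6% and 56.4% in the libraries of experiment 1 and 47.6% in the WT library of experiment 2.

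**Figure D2:**
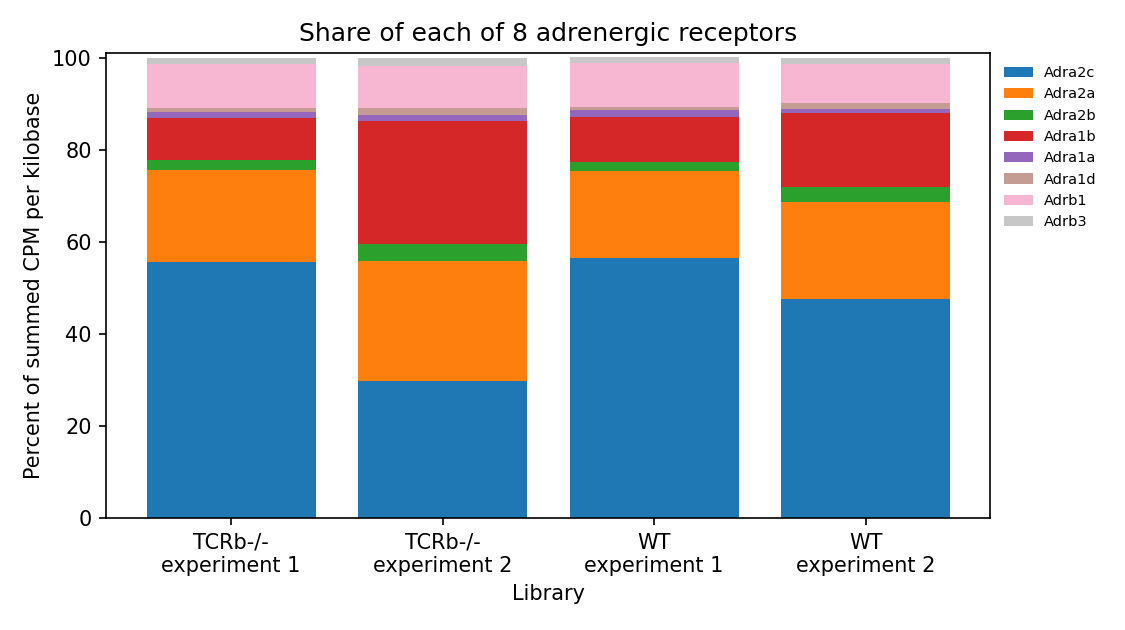
Share of each of 8 adrenergic receptors in their summed CPM per kilobase of exon, in percent, 1 bar per library. Adra2c took 55.6% and 29.9% of the sum in the TCRb-/- libraries of experiments 1 and 2 and 56.4% and 47.6% in the WT libraries. Of the other shares, that of Adra1b rose most from experiment 1 to 2 in both genotypes. The sum itself was lower in both libraries of experiment 2, so a rise in share need not be a rise in level. Adra2a rose in share and fell slightly in level in both genotypes.

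Adra2a encodes the alpha-2A receptor, the main autoreceptor of noradrenergic neurons, which is also made by many target neurons and astrocytes. The gene spans chr19:54044151-54048982 on the plus strand (GRCm38). Adra2a had 32.7 and 31.3 CPM in the TCRb-/- libraries of experiments 1 and 2 and 29.4 and 27.3 CPM in the WT libraries, from 610 to 804 reads per library. Both TCRb-/- libraries lay above both WT libraries, as was the case for 9.76% of the 13912 genes tested. The ratio of TCRb-/- to WT was 1.11 (95% counting interval 1.01 to 1.23) in experiment 1 and 1.15 (1.02 to 1.28) in experiment 2. The fitted log2 difference by genotype was 0.17 (SE 0.14), which did not pass the threshold of 0.05 in limma (unadjusted p = 0.275, adjusted p = 1.00), nor once experiment was added as a block (unadjusted p = 0.104, adjusted p = 0.861). Between experiments Adra2a differed by -0.08 on the log2 scale (SE 0.11, adjusted p = 0.601 in limma). It varied less over the libraries than a typical gene, with a root mean square deviation of 0.0951 against a median of 0.139 (log2) over the genes tested.

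Adra2c encodes the alpha-2C receptor, which is made in quantity by striatal projection neurons. The gene spans chr5:35278319-35281763 on the plus strand and has a single annotated transcript. Adra2c had 64.9 and 25.8 CPM in the TCRb-/- libraries of experiments 1 and 2 and 62.3 and 44.0 CPM in WT, from 515 to 1632 reads. The libraries of experiment 1 were both high and close to each other, and the TCRb-/- library of experiment 2 was the lowest. Between experiments it fell by 0.90 on the log2 scale (SE 0.20, adjusted p = 0.0201 in limma). The fold from experiment 1 to 2 was 0.397 (0.359 to 0.439) in TCRb-/- and 0.706 (0.652 to 0.765) in WT. By genotype the ratio was 1.04 (0.972 to 1.12) in experiment 1 and 0.586 (0.526 to 0.653) in experiment 2, and the fitted log2 difference was -0.35 (SE 0.44, adjusted p = 1.00 in limma). With the experiment as a block the adjusted p was 0.848. The fall between experiments was not called without TCRb-/- replicate 1 (adjusted p = 0.0832) or without WT replicate 1 (0.0691) in limma. Leaving out TCRb-/- replicate 2 moved it to -0.52.

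The balance of the alpha-2 pair is free of the scaling between libraries. Adra2c had 1.98 reads per Adra2a read (95% counting interval 1.82 to 2.16) in TCRb-/- replicate 1 and 2.12 (1.94 to 2.31) in WT replicate 1. It had 0.824 (0.732 to 0.927) in TCRb-/- replicate 2 and 1.61 (1.46 to 1.79) in WT replicate 2. Adra2a reads thus outnumbered Adra2c reads in 1 library of 4. Adra2b, another alpha-2 gene, had between 2.37 and 3.65 CPM and was not called by genotype or between experiments.

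Adra1b encodes the alpha-1B receptor, which is made strongly in the thalamus and in parts of the cortex. The gene spans chr11:43774606-43901210 on the minus strand. Adra1b had 10.4 and 22.7 CPM in the TCRb-/- libraries of experiments 1 and 2 and 10.6 and 14.6 CPM in WT, from 255 to 453 reads. The libraries of experiment 1 were again close to each other, and the TCRb-/- library of experiment 2 was the highest. Between experiments it rose by 0.74 on the log2 scale (SE 0.19, adjusted p = 0.0286 in limma), by a fold of 2.19 (1.87 to 2.56) in TCRb-/- and 1.38 (1.17 to 1.62) in WT. By genotype the ratio was 0.978 (0.822 to 1.16) in experiment 1 and 1.55 (1.34 to 1.79) in experiment 2, with a fitted log2 difference of 0.28 (SE 0.38, adjusted p = 1.00 in limma, 0.873 with the experiment as a block). The rise between experiments was not called in limma without TCRb-/- replicate 1 (adjusted p = 0.103), without TCRb-/- replicate 2 (0.0913) or without WT replicate 1 (0.0918). Without TCRb-/- replicate 2 it was 0.44.

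Adra1a encodes the alpha-1A receptor, which is found in scattered neurons and progenitor cells. The gene spans chr14:66635251-66771168 on the plus strand. Adra1a had 4.27 and 2.85 CPM in the TCRb-/- libraries of experiments 1 and 2 and 4.65 and 2.37 CPM in WT, from 53 to 122 reads. Both libraries of experiment 2 were below both of experiment 1, as for 37.2% of genes tested, and the genotypes overlapped. It fell between experiments by 0.60 on the log2 scale (SE 0.17, adjusted p = 0.0385 in limma), with folds of 0.668 (0.475 to 0.930) in TCRb-/- and 0.509 (0.362 to 0.709) in WT. The fall was not called in limma without TCRb-/- replicate 1 (adjusted p = 0.115), WT replicate 1 (0.164) or WT replicate 2 (0.0997), nor with quantile normalization (0.0543). The log2 difference by genotype was 0.05 (SE 0.33, adjusted p = 1.00 in limma).

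Within the alpha-1 class the balance of reads also differed between experiments. Adra1b had 2.43 reads per Adra1a read (1.93 to 3.08) in TCRb-/- replicate 1 and 2.28 (1.84 to 2.84) in WT replicate 1. The values were 7.95 (6.02 to 10.7) and 6.17 (4.60 to 8.41) in TCRb-/- and WT replicate 2. The intervals of the 2 experiments did not overlap, and those of the 2 genotypes within an experiment did.

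Adra1d encodes the alpha-1D receptor, and its transcript was scarce. It had 11 and 14 reads in TCRb-/- replicates 1 and 2 and 9 and 14 reads in WT, or 0.447, 0.700, 0.343 and 0.626 CPM. It lay under the mean of 1 CPM required for the test and is the 1 gene of the 6 that was left out. Without that filter its log2 difference was 0.09 by genotype (SE 0.21, adjusted p = 1.00 in limma) and 0.25 between experiments (SE 0.17, adjusted p = 0.306). The experiment 2 over 1 fold was 1.57 (0.660 to 3.81) in TCRb-/- and 1.82 (0.735 to 4.78) in WT, so a difference of up to several fold in either group was not detectable at this depth. The gene (chr2:131545850-131562283, minus strand) is overlapped by the antisense gene Gm14285 in GENCODE M21, and reads from the 2 strands cannot be told apart where counting without strand is used. The strand setting was not given in the sources used here.

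Adrb1 encodes the beta-1 receptor, the main neuronal beta receptor of the forebrain. The gene spans chr19:56722199-56733113 on the plus strand. Adrb1 had 11.0 and 7.65 CPM in the TCRb-/- libraries of experiments 1 and 2 and 10.3 and 7.60 CPM in WT, from 153 to 270 reads. The values paired closely within each experiment, with log2 ratios of TCRb-/- to WT of 0.10 (95% counting interval -0.15 to 0.35) and 0.01 (-0.31 to 0.33). The log2 difference by genotype was 0.05 (SE 0.25, adjusted p = 1.00 in limma). Between experiments Adrb1 fell by 0.43 on the log2 scale (SE 0.13), just past the threshold in limma (adjusted p = 0.0492). That call was lost with genotype as a block (adjusted p = 0.0523), under median-of-ratios scaling (0.0594), under quantile normalization (0.0834), with voom weights (0.0520), without a filter (0.0580) and without each single library (0.0950 to 0.196). The fold was 0.697 (0.568 to 0.853) in TCRb-/- and 0.741 (0.608 to 0.901) in WT. Adrb3 had between 1.34 and 1.67 CPM and was not called in either comparison.

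The design asked whether the genotypes differed. By genotype, limma called 0 of the 5 receptors tested, against 0% of 13912 genes, and 0 of the 5 had an unadjusted p under 0.05, against 0.309% of genes. With the experiment as a block, 0 of 5 were called against 0.0144% of genes, and 0 of 5 had an unadjusted p under 0.05 against 5.64% of genes. The smallest unadjusted p was 0.275 without the block (Adra2a) and 0.0722 with it (Adra2c), and 0.272 with voom weights (Adra2a). For 3 of the 5 (Adra1a, Adra1b and Adra2c) the difference had opposite signs in the 2 experiments, as for 48.4% of genes. The median log2 difference of the 5 was 0.05, beside 0.00 over all genes. Without the block the standard errors ran from 0.14 for Adra2a to 0.44 for Adra2c and included the difference between experiments. With the block they ran from 0.09 for Adra2a to 0.18 for Adra1a. In either fit a difference of the size of the standard error could not be told from the spread between libraries. For 1 gene, an exact permutation of 2 against 2 libraries has a smallest p of 0.333.

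**Figure D3:**
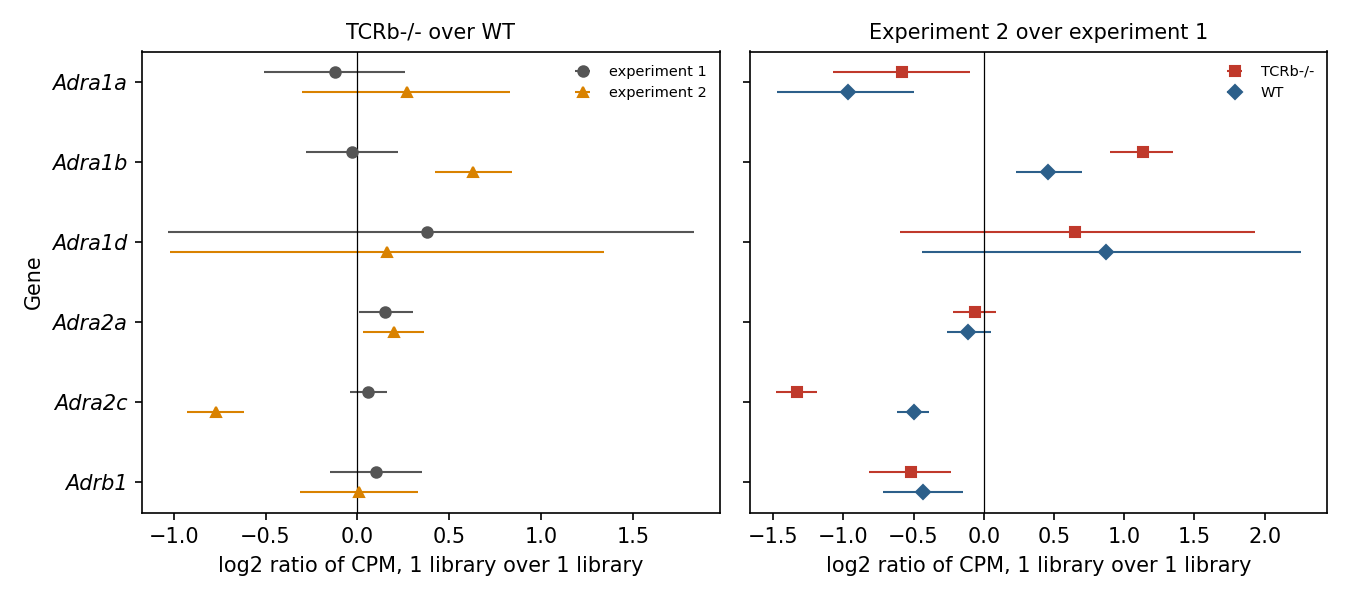
Log2 ratio of CPM between single libraries for the 6 receptor genes, TCRb-/- over WT within each experiment on the left and experiment 2 over experiment 1 within each genotype on the right; bars are exact 95% intervals for counting error only. Adra1b and Adra2c lay near 0 by genotype in experiment 1 and at 0.63 and -0.77 in experiment 2. Between experiments Adra1a, Adra2c and Adrb1 lay below 0 in both genotypes with intervals that excluded 0. Adra2a also lay below 0, with intervals that included 0.

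The experiments were compared as well, each holding 1 library of each genotype. Between experiments limma called 4 of the 5 receptors tested, 1 higher (Adra1b) and 3 lower (Adra1a, Adra2c and Adrb1) in experiment 2. Over all 13912 genes tested 23.7% were called, 8.95% higher and 14.7% lower. Of all calls 37.8% were higher, and 50.7% under quantile normalization. The median log2 difference of the 5 receptors was -0.43, beside -0.03 over all genes. No receptor changed direction under either alternative scaling. Under median-of-ratios scaling 3 of the 5 were called, against 23.8% of genes, and under quantile normalization 2, against 23.2%. With genotype as a block 3 of the 5 were called, against 24.7% of genes. The 2 experiments did not overlap for 4 of the 5, as for 67.3% of all genes. Moderation without a mean-variance trend left 0 of the 5 called (adjusted p from 0.0504), against 4.52% of genes. Experiment 1 and 2 are labelled as batches, and what differed between them was not given in the labels.

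Markers of neighbouring brain regions moved with 2 of the receptors. The summed level of 11 striatal markers, Ppp1r1b and Penk being the most abundant, was 4494 and 980 CPM in the TCRb-/- libraries of experiments 1 and 2 and 4033 and 2449 CPM in WT. The order of the libraries was that of Adra2c, and 11 of 11 markers were called lower in experiment 2, beside 14.7% of all genes. All 11 were detected in every library, and 11 of 11 were lowest in TCRb-/- replicate 2. Adra2c was 1.44%, 2.63%, 1.54% and 1.80% of the striatal sum in TCRb-/- replicates 1 and 2 and WT replicates 1 and 2, so it fell less than the markers did. The part of striatal tissue in the Adra2c difference was not tested.

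The summed level of 9 thalamic markers, Prkcd, Slc17a6 and Tcf7l2 being the most abundant, was 391 and 829 CPM in the TCRb-/- libraries of experiments 1 and 2 and 393 and 526 CPM in WT. Of the 9, 6 were called higher in experiment 2 and 0 lower, beside 8.95% and 14.7% of all genes. In TCRb-/- replicate 2, 9 of 9 were highest. None was at 0 in any library. Adra1b amounted to 2.65% and 2.73% of that sum in TCRb-/- and 2.70% and 2.78% in WT. Prkcd, which was not called (log2 difference 0.24), made up between 34.2% and 56.8% of that sum. Without Prkcd, Adra1b was 6.13% and 4.15% of the other 8 in TCRb-/- and 5.28% and 4.63% in WT. The nearly equal ratio to the whole list thus rests on Prkcd, and Adra1b rose less than the other 8 summed. These ratios were computed after the levels had been seen. The part of thalamic tissue in the Adra1b difference was not tested.

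**Figure D4:**
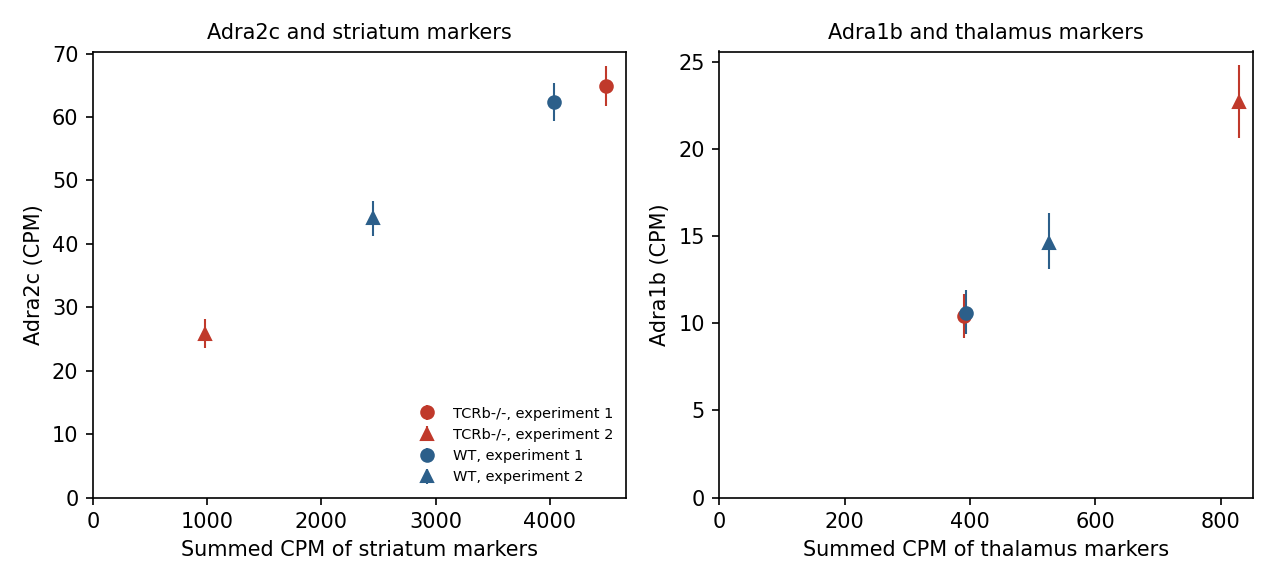
Left, Adra2c level against the summed level of 11 striatal markers; right, Adra1b level against the summed level of 9 thalamic markers, in CPM, 1 point per library with exact 95% counting intervals. The TCRb-/- library of experiment 2 had the lowest striatal sum (980 CPM) with the lowest Adra2c (25.8 CPM) and the highest thalamic sum (829 CPM) with the highest Adra1b (22.7 CPM).

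Other cell populations that make adrenergic receptors were read in the same way. The sum of 11 cortical and hippocampal markers was 259 and 93.9 CPM in the TCRb-/- libraries of experiments 1 and 2. In WT it was 328 and 85.6 CPM. Of the 11, 6 were called lower in experiment 2, beside 14.7% of all genes. Adrb1 and Adra1a were lower in the same libraries, but less so, with Adrb1 at 4.23% and 8.16% of the sum in TCRb-/- and 3.13% and 8.88% in WT, and Adra1a at 1.65% and 3.04% and at 1.42% and 2.77%. Without the most abundant of the 11, Adrb1 was at 9.70% and 11.0% in TCRb-/- and 6.82% and 11.7% in WT, and Adra1a at 3.77% and 4.08% and at 3.09% and 3.66%. The sum of 8 mural cell markers, which mark vascular smooth muscle and pericytes, was 60.5 and 24.1 CPM in TCRb-/- and 51.8 and 28.2 CPM in WT, and 4 of 7 tested were called lower. The part of either population in the Adra1a and Adrb1 differences was not tested. Astrocyte markers had sums between 2701 and 2959 CPM, with 1 of 12 (Slc1a2) called between experiments. Choroid plexus markers summed to 2165 and 6940 CPM in the TCRb-/- libraries of experiments 1 and 2 and 1323 and 4222 CPM in WT. Of these markers 13 of 14 were called higher in experiment 2, beside 8.95% of all genes, and 14 of 14 were highest in TCRb-/- replicate 2. Of the markers of oligodendrocytes, microglia and endothelial cells, 1 of 6, 1 of 6 and 0 of 4 tested were called. Over all genes, 23.7% were called in either direction. No listed marker was at 0 in any library, and by genotype 0 markers were called in any of these lists (1, in the choroid plexus list, with the experiment as a block).

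Genes that make, move and break down noradrenaline were examined next. Of 12, 10 were listed. Dbh, the enzyme that makes noradrenaline from dopamine, and Slc6a2, the noradrenaline transporter of noradrenergic neurons, are not analysed here. By genotype 0 of the 8 tested were called, with a median log2 difference of 0.02. Between experiments 4 of the 8 were called higher in experiment 2 and 0 lower, beside 8.95% and 14.7% of all genes. Their median log2 difference was 0.38, beside -0.03 over all genes. Th, the rate-limiting enzyme of catecholamine synthesis, had 26.4 and 41.1 CPM in the TCRb-/- libraries of experiments 1 and 2 and 25.8 and 43.9 CPM in WT. It rose by 0.68 (log2, SE 0.09, adjusted p = 0.00534 in limma), and Ddc, the next enzyme of that pathway, by 0.50 (SE 0.10, adjusted p = 0.0129). Both are also made by dopamine neurons.

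Of the breakdown enzymes, Maob, a monoamine oxidase of astrocytes and serotonin neurons, had 56.9 and 127 CPM in TCRb-/- and 60.0 and 80.6 CPM in WT, a rise of 0.78 between experiments (log2, SE 0.18, adjusted p = 0.0203 in limma). Slc29a4, a low-affinity monoamine transporter, rose by 0.86 (SE 0.14, adjusted p = 0.00791). Among those not called were Maoa (0.25), Slc18a2 (0.15), the vesicular loader of monoamines, and Slc22a3 (-0.52), another low-affinity carrier. Pnmt, which makes adrenaline, had between 0.25 and 0.895 CPM, and Slc18a1, a vesicular transporter of endocrine cells, between 0.305 and 1.21 CPM. Both were under the level required for the test.

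Downstream of the receptors, 0 of 60 signalling and ligand genes tested were called by genotype, with 0 at an unadjusted p under 0.05 and a median log2 difference of -0.01. With the experiment as a block 0 were called and 6 had an unadjusted p under 0.05, against 5.64% of all genes. The gene with the smallest unadjusted p without the block in each group was Prkca (log2 difference -0.25), Kcnj9 (0.20), Adcy6 (0.33), Adrbk1 (0.18) and Rgs2 (-0.14). Between experiments 22 of the 60 (36.7%) were called, 7 higher and 15 lower, beside 23.7% of all genes. Without TCRb-/- replicate 1 or WT replicate 1 the count was 14 and 13, and moderation without a trend left 5.

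In the Gq arm, used by alpha-1 receptors, 1 gene was called higher and 3 lower in experiment 2, of 12 tested. Over all genes 8.95% were called higher and 14.7% lower, for this and the other arms. Plcb4, a phospholipase C, rose by 0.53 (log2, adjusted p = 0.0116 in limma), and Itpr1, the calcium channel opened by inositol trisphosphate, fell by 1.13 (adjusted p = 0.00501) and Prkcb, a protein kinase C, by 0.71 (0.00851). In the Gi and Go arm, used by alpha-2 receptors, 1 of 9 was called, Gnao1, which fell by 0.32 (adjusted p = 0.0116). In the Gs arm, used by beta receptors, 1 gene was called higher and 5 lower of 13. Gnas, a stimulatory G protein subunit, rose by 0.69 (adjusted p = 0.00503 in limma), while the adenylyl cyclases Adcy5 and Adcy1 fell by 1.42 (0.00976) and 1.03 (0.00253). Gnal, the other stimulatory subunit listed, fell by 0.74 (adjusted p = 0.00635 in limma). It was the more abundant, with 429 and 217 CPM in TCRb-/- and 378 and 266 CPM in WT. Gnas had 38.2 and 66.5 CPM in TCRb-/- and 39.3 and 59.6 CPM in WT. Adcy5 is the main cyclase of striatal neurons and had 328 and 82.4 CPM in TCRb-/- and 292 and 160 CPM in WT, in the library order of Adra2c.

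Of 7 receptor kinases and arrestins, which switch off activated receptors, 1 was called higher and 2 lower in experiment 2. Over all genes the shares were 8.95% and 14.7%. Adrbk2 fell by 0.61 (log2, adjusted p = 0.0275 in limma) and Arrb1 by 0.41 (0.00809), while Arrb2 rose by 0.45 (0.0230). Of 11 receptor partners and RGS proteins 0 were called higher and 4 lower. Akap5, a scaffold that holds protein kinase A at the beta receptor, fell by 1.00 (adjusted p = 0.0129 in limma). Rgs4, which shortens Gq and Gi signals, fell by 0.94 (adjusted p = 0.00235 in limma).

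The genes most like each receptor were sought among the 9818 other genes averaging 10 CPM or more, by the root mean square distance between log2(CPM + 1) values centred on the gene mean. With 4 libraries that differ mainly by experiment, many genes lie close to any pattern. Nearest to Adra2c were Rgs14 (distance 0.011), Arpp19 (0.034) and Diaph2 (0.050). Rgs14 had 134 and 53.6 CPM in TCRb-/- and 129 and 89.7 CPM in WT. Nearest to Adra1b were Maob (0.031), Slc41a3 (0.056) and Rora (0.075), the last with 52.4 and 111 CPM in TCRb-/- and 60.8 and 73.4 CPM in WT. Nearest to Adra2a were Hdac10 (0.014), Hbs1l (0.015) and Gys1 (0.017). For Adrb1 they were Nav3 (0.008), Ubtd2 (0.012) and Slc25a23 (0.014), and for Adra1a Mapkbp1 (0.024), D5Ertd579e (0.031) and Mical2 (0.037). Adra1d, too scarce for its pattern to stand out from counting error, was nearest to Aimp2 (0.005), Rps29 (0.006) and Akr1e1 (0.006).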

How the data were processed

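RNA was sequenced from cleared lysates of pooled septal tissue in 4 libraries, made with a SMARTer low-input kit per the labels' protocols. The deposited values were log2 of CPM, with 0.5 added to the reads and 1 to the library total, per the file headers and the values, and the authors' row filter was not given in the sources used here. The submitters' processing notes name HISAT2 2.1.0, SAMtools 1.3, HTSeq 0.9.1, R 4.0.5, limma 3.46.0 and build mm10, without roles. Solving for the total gave whole reads for 100% of values within 0.001 reads. The 17 spike-in rows were left out.

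Reads were expressed as log2(CPM + 1), which understates changes of low genes, and genes averaging 1 CPM or more were tested. Limma 3.58.1, run in R 4.3.3, compared genotypes and, separately, experiments (empirical Bayes with a mean-variance trend, two-sided, Benjamini-Hochberg over 13912 genes, threshold 0.05). Called means past that threshold. The code was tested on simulated data. Experiment numbers pair the libraries per the labels, and across genes the same-numbered libraries deviated together from their genotype means (r = 0.719). Lengths came from GENCODE M21, as the union of exons. Intervals are exact at 95% (Clopper-Pearson for a level, conditional binomial for a ratio), and intervals and the floor of 3 reads cover counting error only. Python 3.11.15, pandas 2.3.3, scipy 1.17.1 and matplotlib 3.10.9 were used. P-values measure the spread between pools.

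The receptors and the gene lists were chosen with earlier results of these data known. Named were the 6 receptors and the noradrenaline genes whatever their values, up to 2 called genes in each direction and the smallest p by genotype in each other list, and 3 nearest genes per receptor. Further genes given with values were picked with those values in view. The alternatives changed the pseudocount (0.1 or 5), the filter (none, or 10 CPM), the scaling (quantile or median of ratios), the moderation (no trend, or voom weights), the block and the libraries kept. Some results under these rules are not reported here.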

Additional observations from a re-analysis of the deposited data

Results flagged for a closer look

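For 3 of the 6 receptors the TCRb-/- library lay on opposite sides of its WT partner in the 2 experiments. The log2 ratio of TCRb-/- to WT was -0.12 in experiment 1 and 0.27 in experiment 2 for Adra1a, -0.03 and 0.63 for Adra1b, and 0.06 and -0.77 for Adra2c. A change of sign was seen in 48.4% of all genes tested. With 1 library per genotype in each experiment the difference between experiments was not tested. The 95% counting interval excluded a ratio of 1 in experiment 2 for Adra1b and Adra2c, and in no other of these 6 ratios. Striatal markers were lowest, and thalamic and choroid plexus markers highest, in the same TCRb-/- library of experiment 2.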

How the results depend on the processing

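All 54 genotype differences of the receptors under alternatives with every library kept their direction and stayed short of the threshold, and 38 of 49 experiment differences kept direction and call. The other 11 lost the call at the same direction, 7 of them Adrb1. The count of genes called by genotype was 0 in the unblocked fits, 2 with the replicate block, 2 with the replicate block and a pseudocount of 0.1, and 1 with the replicate block and no filter. The replicate block changed no receptor's call by genotype. The fits that joined a block with no filter, and the levels per longest transcript, were chosen after seeing the data. Without a trend 629 genes were called between experiments; the cause was not tested. Under the filter at 10 CPM, Adra1a, Adra1d and Adrb1 have no value.

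With single libraries left out, the lone library of a genotype was assumed to vary like the others and the experiments were unbalanced by construction. Counts ranged from 0 to 47 by genotype (47 without TCRb-/- replicate 1, 1 without TCRb-/- replicate 2) and from 1406 to 3390 between experiments (1406 without TCRb-/- replicate 1, 1637 without WT replicate 1, 1823 without TCRb-/- replicate 2). Genotype differences (log2) ranged from -0.33 to 0.42 for Adra1a, -0.24 to 0.81 for Adra1b, -0.99 to 0.30 for Adra2c, -0.19 to 0.28 for Adrb1 and 0.12 to 0.22 for Adra2a, with 0 receptors called. The experiment difference of Adra2a ranged from -0.18 to 0.01. Adcy5 was called by genotype without TCRb-/- replicate 1 (-1.38, adjusted p 0.0169 in limma). Depth limits Adra1d most, at 9 to 14 reads per library.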
